A study of Mus musculus with 2 samples.

Results

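A set of 10 genes of adipocyte commitment and lipid handling was followed in the stroma of the mouse mammary gland at puberty and in adulthood. The genes, *Pparg*, *Cebpa*, *Cebpb*, *Fabp4*, *Fabp5*, *Cd36*, *Lpl*, *Plin2*, *Car3* and *Aoc3*, were taken by symbol from 33696 listed genes, with no measured value in the rule. Earlier results of these data were known when the genes were chosen. All 10 were listed once in both libraries.

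A fibroblast-like precursor becomes a fat cell in steps. C/EBPβ (*Cebpb*) is an early transcription factor of that program, the nuclear receptor PPARγ (*Pparg*) is its central regulator, and C/EBPα (*Cebpa*) acts with PPARγ to maintain the fat cell state. Lipoprotein lipase (*Lpl*) releases fatty acids from circulating triglyceride, CD36 takes them up, the binding proteins encoded by *Fabp4* and *Fabp5* carry them inside the cell, and perilipin 2 (*Plin2*) coats the droplets in which lipid is stored. *Car3* encodes carbonic anhydrase 3, which is abundant in mature adipocytes, and *Aoc3* encodes a copper amine oxidase on the surface of adipocytes and smooth muscle cells. *Fabp4*, *Cd36*, *Pparg* and *Aoc3* are also expressed in cells of the vessel wall, so they are not specific to the fat lineage.

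The libraries came from female wildtype C57BL/6 mice, with no transgene or treatment. One library held pubertal cells (4 weeks) and the other cells of virgin adults (9 weeks), and per the labels each pooled 2 females. Both were sorted as lineage-negative (CD31-, CD45- and TER-119-negative) and CD24-negative stroma, a gate that leaves out endothelial, immune, red blood and epithelial cells, and mature fat cells are largely lost when tissue is dissociated. Both libraries carried the label of replicate 2, and there was 1 library per stage, so no difference between the stages could be tested against a spread between animals.

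The files held 255274670 unique molecular identifiers (UMIs) over 21688 pubertal barcodes and 259549498 UMIs over 23183 adult barcodes. Cells with at least 500 genes and no more than 10% of UMIs from mitochondrial genes numbered 21534 and 22972. The 2 libraries shared 145 barcode sequences, 0.669% of the pubertal and 0.625% of the adult barcodes. Cells with a *Pdgfra* UMI, the fibroblast marker of the study, numbered 18878 at puberty and 20999 in the adult, and the fibroblast gene *Dcn* was counted in 99.9% and 99.6% of them. Levels are given in CPM, the UMIs of a gene per 1000000 UMIs summed over all cells of a group, with exact 95% Poisson intervals. Ratios between groups carry conditional binomial intervals. All intervals cover counting error only.

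A total of 5 overlapping subsets of *Pdgfra*+ cells were read by marker. *Pi16*+*Dpp4*+ cells, which carry both markers of a mesenchymal progenitor state, numbered 13983 at puberty and 8853 in the adult, 74.1% and 42.2% of *Pdgfra*+ cells. Cells with *Gdf10* or *Fmo2* numbered 7462 and 10066, cells with *Thbs4* or *Bmp5* 927 and 3117, cells with *Crabp1* 289 and 2672, and cells with *Frmpd4* 979 and 5262. A cell with markers of more than 1 subset was counted in each, and such cells made up 28.5% of pubertal and 39.7% of adult *Pdgfra*+ cells. The cells with none of these markers, 1100 and 1877 cells, were added as a group beyond the rule. Vessel wall cells were read as *Pdgfra*-negative cells with *Myh11* or *Rgs5*, 783 and 457 cells. In them *Acta2*, a smooth muscle actin, was counted in 92.1% and 76.8% of cells and *Dcn* in 33.7% and 42.0%, which puts them with mural cells, the smooth muscle cells and pericytes of vessels, with some fibroblast RNA in their droplets.

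Across *Pdgfra*+ cells the 10 genes did not move as a block between the stages. *Pparg* and *Plin2* were more than 2-fold higher in the adult library, *Cebpa*, *Lpl* and *Aoc3* were higher by less than 2-fold, and *Cebpb*, *Fabp4*, *Fabp5*, *Cd36* and *Car3* were lower by less than 2-fold. The 2 genes past 2-fold higher stood against a background of 4.4% of 8645 genes with at least 10 CPM in 1 library, and the 0 genes past 2-fold lower against 1.86%. With at least 10 UMIs in each library in place of 10 CPM, the backgrounds were 8.26% and 4.85% of 19307 genes. The median log2 ratio was 0.17 over the 10 genes, 0.13 over the 8645 genes and 0.16 over the 19307 genes. *Fabp5* stayed under 10 CPM in both libraries and *Cebpa* passed 10 CPM in the adult library alone.

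*Pparg* (chromosome 6, 115360951 to 115490399, plus strand, GRCm38) stood at 32.2 CPM at puberty (31.4 to 32.9) and 74.0 CPM in the adult. The adult library was 2.30 times the pubertal one (2.24 to 2.36). *Plin2* (chromosome 4, 86648386 to 86670060, minus strand) stood at 44.4 and 99.4 CPM, a ratio of 2.24 (2.19 to 2.29). After each cell was reduced at random to 3000 UMIs, the share of *Pdgfra*+ cells with *Pparg* was 6.64% at puberty and 14.9% in the adult (16.5% and 32.4% before the reduction) and that with *Plin2* 10.9% and 20.7% (33.0% and 46.1%). For both genes the share of cells with a UMI therefore gave the same order as the CPM. *Pparg* was in 0 of 29 pubertal and 0 of 16 adult Schwann-like cells, a type that should lack it. These cells had median depths of 3045 and 2535 UMIs against 12187 and 11265 in *Pdgfra*+ cells. These counts of 0 allow shares of up to 10.3% and 18.8%. It was also in 0 of 66 adult skeletal muscle-like cells, which allows up to 4.55%.

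The promoter windows of these 2 genes are shown because they were the pair past 2-fold. Windows of 300 bases, from 250 before to 50 after a transcript start, were available from RefSeq (GRCm38.p6) for 5 of the 10 genes, namely *Pparg*, *Cebpa*, *Cebpb*, *Cd36* and *Plin2*. *Pparg* had 3 such windows. The windows were searched on both strands for AGGTCA, the half-site of nuclear receptors such as PPARγ. It occurred in 4 of 7 windows and in 3 of the 5 genes (*Pparg*, *Plin2* and *Cd36*), and in 16.3% of all 32851 windows of this length. The direct repeat of the half-site with 1 base between, AGGTCANAGGTCA, was in none of the 7 and in 0.0396% of all windows. Of the 3 *Pparg* windows, the third (chr6:115421816-115422115) holds no half-site. The second holds it 9 bases before the start, and neither of these is printed here. The first *Pparg* window (chr6:115360894-115361193, plus strand) holds the half-site 28 bases before the start, and the *Plin2* window (chr4:86670010-86670309, minus strand) holds its reverse complement 218 bases before the start. The capitals mark these 6 bases, and each sequence is written 5′ to 3′ along the gene.
Pparg first window: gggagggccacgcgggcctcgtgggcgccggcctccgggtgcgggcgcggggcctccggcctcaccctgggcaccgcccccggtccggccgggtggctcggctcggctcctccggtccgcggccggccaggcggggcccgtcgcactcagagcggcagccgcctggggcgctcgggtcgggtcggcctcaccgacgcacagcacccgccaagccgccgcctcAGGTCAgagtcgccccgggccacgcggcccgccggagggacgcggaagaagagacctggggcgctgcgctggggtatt
Plin2 window: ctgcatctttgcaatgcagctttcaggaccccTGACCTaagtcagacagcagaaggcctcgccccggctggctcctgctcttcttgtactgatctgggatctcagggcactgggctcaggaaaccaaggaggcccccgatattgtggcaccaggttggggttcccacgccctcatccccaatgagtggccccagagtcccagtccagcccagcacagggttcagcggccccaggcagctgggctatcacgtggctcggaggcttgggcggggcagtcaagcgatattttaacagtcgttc

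The factor genes beside *Pparg* differed less between the stages. *Cebpa* (chromosome 7, 35119293 to 35121928) was low, at 9.41 CPM at puberty and 12.6 CPM in the adult, a ratio of 1.34 (1.27 to 1.41). *Cebpb* (chromosome 2, 167688915 to 167690418) stood at 342 and 294 CPM, a ratio of 0.859 (0.850 to 0.867). In cells reduced to 3000 UMIs *Cebpb* was in 52.8% and 48.7% of *Pdgfra*+ cells and *Cebpa* in 2.74% and 3.83%. The early factor was thus counted in about as many cells with a *Pparg* UMI as without one, 55.0% and 52.6% at puberty and 49.8% and 48.5% in the adult.

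Of the genes for uptake and transport of fatty acids, *Lpl* (chromosome 8, 68880491 to 68907448) stood at 719.6 CPM at puberty and 956 CPM in the adult, a ratio of 1.33 (1.32 to 1.34). It was widespread, in 93.9% and 92.5% of *Pdgfra*+ cells before any reduction. *Cd36* (chromosome 5, 17781690 to 17888801) stood at 20.5 and 17.9 CPM, a ratio of 0.870 (0.835 to 0.906). *Fabp4* (chromosome 3, 10204088 to 10208576) stood at 119 and 110.3 CPM, a ratio of 0.927 (0.912 to 0.943). Its share of cells at 3000 UMIs went the other way, 8.77% at puberty and 10.9% in the adult, so no order between the stages was read for *Fabp4*. *Fabp5* (chromosome 3, 10012548 to 10016607) stood at 8.96 and 8.72 CPM, a ratio of 0.974 (0.917 to 1.03) whose interval includes 1. A processed copy of *Fabp5* is annotated elsewhere in the genome, so how its reads were divided is uncertain.

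Of the remaining genes, *Car3* (chromosome 3, 14863512 to 14872523) stood at 13.1 and 9.86 CPM, a ratio of 0.755 (0.716 to 0.796). *Aoc3* (chromosome 11, 101330605 to 101341938) stood at 34.7 and 44.8 CPM, a ratio of 1.29 (1.26 to 1.33). An antisense gene, *Gm28156*, overlaps the end of *Aoc3*, and whether the counting used strand is not given in the sources used here. The genes differed in how evenly their UMIs were spread over cells. The 1% of *Pdgfra*+ cells with most UMIs of a gene held 9.22% of the *Lpl* UMIs at puberty and 8.94% in the adult, and 36.0% and 35.3% of the *Fabp4* UMIs. For *Car3* they held 92.7% and 93.9%, and the top 10 cells alone held 33.5% and 61.7%. *Car3* was found in 385 and 359 *Pdgfra*+ cells, so its sum over a library rests on a few cells.

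The *Car3* sum also moved with markers of fat cells. At least 2 of 6 adipocyte markers (*Adipoq*, *Plin1*, *Plin4*, *Cidec*, *Lep* and *Retn*) were counted in 14 *Pdgfra*+ cells of each library, which held 837 of 3091 *Car3* UMIs at puberty and 1345 of 2441 in the adult. Without those 28 cells the log2 ratio of *Car3* went from -0.41 to -1.10, at 9.53 and 4.43 CPM, under the 10 CPM needed for a call. The summed level of the 6 markers was 3.19 CPM at puberty and 3.11 CPM in the adult over all *Pdgfra*+ cells. It was 71.9 and 66.8 CPM in cells with at least 2 *Car3* UMIs, against 2.11 and 2.45 CPM in cells with none. *Lep*, which encodes leptin, had 0 UMIs at puberty and 1 UMI in the adult, and *Cidec*, which encodes a droplet protein of fat cells, had 11 and 20 UMIs. The part that fat cell RNA had in the *Car3* counts was not tested.

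**Figure D1:**
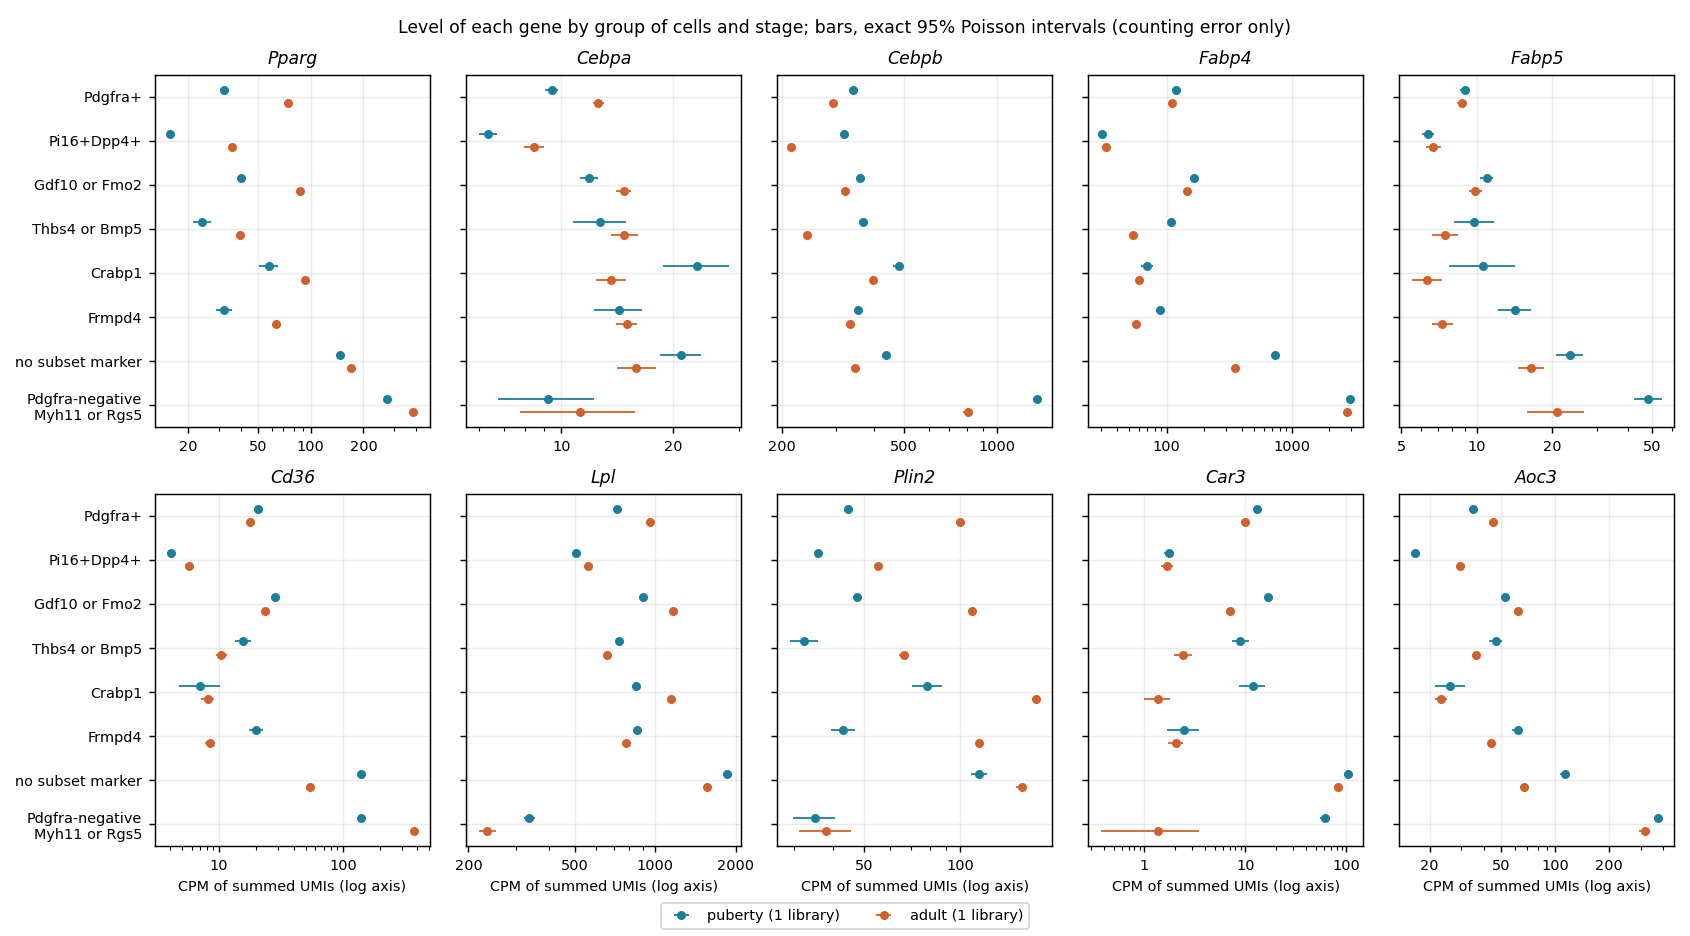
Level of each gene in CPM (x axis, log scale, with its own range in each panel) in 8 groups of cells (y axis), with pubertal points in blue and adult points in orange. Each point is 1 library and the bars are exact 95% Poisson intervals. *Pi16*+*Dpp4*+ cells sit at the low end for *Fabp4*, with 30.5 and 32.6 CPM, and the *Pdgfra*-negative cells with *Myh11* or *Rgs5* at the high end, with 2916 and 2773 CPM.

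All 10 genes were lower in *Pi16*+*Dpp4*+ cells than in the other *Pdgfra*+ cells of the same library, at both stages. At puberty 9 of the 10 were at least 2-fold lower, against a background of 7.94% of 8488 genes, and in the adult 7 of 10, against 6.29% of 8837. *Car3* was among them at both stages. Without the cells with at least 2 adipocyte markers *Car3* stood at 4.43 CPM over adult *Pdgfra*+ cells. The adult counts that include *Car3* were not redone without those cells, here and in the *Thbs4* or *Bmp5*, *Crabp1* and *Frmpd4* cells. None of the 10 was 2-fold higher, where 5.24% and 5.18% of all genes were. *Fabp4* stood at 30.5 CPM in pubertal *Pi16*+*Dpp4*+ cells, 0.0738 times the level in the others, and at 32.6 CPM in adult ones, 0.177 times. *Pparg* stood at 15.8 and 35.7 CPM, 0.183 and 0.323 times the others. *Cd36* stood at 4.12 and 5.76 CPM, 0.0549 and 0.195 times the others. *Cebpb* was the gene nearest to even at puberty, at 0.757 times the others, and *Fabp5* in the adult, at 0.631 times. At 3000 UMIs *Pparg* was in 3.44% and 7.63% of *Pi16*+*Dpp4*+ cells, and *Fabp4* in 2.82% and 3.76%. *Fabp4* was in 1 of 31 pubertal (3.23%) and 1 of 66 adult (1.52%) skeletal muscle-like cells. *Pparg* was in 0 of 31 and 0 of 66 of them, which allows up to 9.68% and 4.55%. The Schwann-like limits for *Pparg* lie above both its shares here. The *Fabp4* shares and the pubertal *Pparg* share could thus not be told from free RNA. The adult *Pparg* share lay above the skeletal muscle-like limit and below the Schwann-like one.

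In cells with *Gdf10* or *Fmo2* all 10 genes were higher than in the other *Pdgfra*+ cells at puberty and 9 of 10 in the adult, mostly by less than 2-fold. *Aoc3* was at least 2-fold higher at both stages, at 52.6 and 62.0 CPM, which were 2.41 and 2.30 times the others. *Cd36* was 2.00 times the others in the adult, at 23.7 CPM. These were 1 and 2 genes past 2-fold, against backgrounds of 2.45% of 8214 and 0.717% of 8647 genes. Past 2-fold lower there were 0 genes at both stages, against 0.548% and 1.1%. *Car3* was the exception to the direction, at 7.13 CPM and 0.561 times the others in the adult. That ratio rested on few cells. The 14 adult *Pdgfra*+ cells with at least 2 adipocyte markers held 1345 of 2441 *Car3* UMIs, and 16 of the 1345 were in this subset. No direction was therefore read for *Car3* here.

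The *Thbs4* or *Bmp5* cells stood near the other *Pdgfra*+ cells at puberty, with 0 of 10 genes past 2-fold, against backgrounds of 4.09% higher and 0.92% lower of 8368 genes. In the adult, 9 of 10 were lower. Of these 3 were at least 2-fold lower, against a background of 1.62% of 8695 genes, and 0 were 2-fold higher, against 1.99%. Those 3 were *Pparg* at 39.3 CPM (0.488 times the others), *Fabp4* at 53.9 CPM (0.446 times) and *Car3* at 2.44 CPM (0.217 times). Without the cells with at least 2 adipocyte markers *Car3* stood at 4.43 CPM over all adult *Pdgfra*+ cells, under the 10 CPM needed for a call. The other *Pdgfra*+ cells were a different mix of subsets at each stage. In them *Pparg* stood at 32.6 CPM at puberty and 80.5 CPM in the adult, *Fabp4* at 120 and 121 CPM and *Car3* at 13.3 and 11.2 CPM. In the pubertal *Thbs4* or *Bmp5* cells the 3 genes stood at 24.0, 108 and 8.94 CPM. In cells that carried markers of no second subset, the log2 difference turned to 0.05 for *Pparg* and 0.19 for *Fabp4*.

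By summed level the *Crabp1* cells combined low *Fabp4* and *Cd36* with high *Plin2* and *Pparg*. *Plin2* stood at 78.6 CPM at puberty and 173 CPM in the adult, 1.80 and 1.95 times the other *Pdgfra*+ cells, and *Pparg* at 57.6 and 92.5 CPM, 1.82 and 1.30 times. *Fabp4* stood at 69.8 and 59.5 CPM, 0.583 and 0.504 times the others, and *Cd36* at 7.08 and 8.07 CPM, 0.340 and 0.417 times. The lipid droplet gene and the genes of fatty acid uptake thus differed in direction within the same subset. *Lpl* was on the side of *Plin2*, at 844 and 1148 CPM, 1.18 and 1.24 times the others. At puberty 1 gene was past 2-fold higher (*Cebpa*, at 23.1 CPM and 2.52 times the others, background 9.32% of 8701 genes) and 1 lower (*Cd36*, background 6.84%). In the adult 0 were past 2-fold higher, against 4.96% of 8906 genes, and 3 lower (*Cd36*, *Car3* and *Aoc3*), against 5.91%.

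In the *Frmpd4* cells *Plin2* was near even at puberty, at 43.0 CPM and 0.967 times the others, and stood at 114 CPM and 1.21 times in the adult. *Fabp4* in the *Frmpd4* cells stood at 88.7 and 56.9 CPM, 0.735 and 0.448 times the others. Past 2-fold lower were *Car3* at puberty (0.182 times the others), 1 gene against a background of 2.9% of 8345 genes, and *Fabp4*, *Cd36* and *Car3* in the adult, 3 genes against 2.1% of 8672. The 0 genes past 2-fold higher stood against 4.12% and 1.13%.

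In the cells with no subset marker all 10 genes were higher than in the other *Pdgfra*+ cells at both stages. At puberty 9 were at least 2-fold higher, against a background of 4.41% of 8441 genes, and in the adult 5, against 1% of 8786. The 0 genes past 2-fold lower stood against 4.63% and 2.89%. *Fabp4* stood at 739 CPM at puberty, 8.48 times the others, and 351 CPM in the adult, 3.80 times. *Cd36* stood at 139 and 54.8 CPM, 9.61 and 3.62 times the others. *Pparg* stood at 148 and 170.2 CPM, 5.62 and 2.55 times. *Lpl* stood at 1856 and 1559 CPM, 2.81 and 1.71 times. *Car3* stood at 105 and 82.8 CPM, 12.5 and 18.7 times, and at 74.1 and 8.51 CPM without the cells with at least 2 adipocyte markers. Those were 4 cells at puberty and 6 in the adult. The adult 8.51 CPM is under the 10 CPM needed for a call, so *Car3* is among the adult 5 only with those cells. At least 2 of 7 mural markers were counted in 5.36% and 2.72% of the cells with no subset marker, against 2.33% and 1.83% of all *Pdgfra*+ cells. Without them *Fabp4* stood at 737 and 273 CPM in these cells, and *Pparg* at 148 and 167 CPM. With the cells with at least 2 adipocyte markers removed instead, *Fabp4* stood at 717 and 266 CPM. In the adult, 2 cells with at least 3 adipocyte markers held 1325 of the 6023 *Fabp4* UMIs of this group.

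Within the cells with no subset marker, *Fabp4* and *Cd36* were the 2 of 10 genes at least 2-fold lower in the adult, against a background of 1.8% of 8711 genes. The 0 genes past 2-fold higher stood against 3.95%. *Fabp4* was 0.475 times its pubertal level (0.460 to 0.491) and *Cd36* 0.394 times (0.363 to 0.428). At 3000 UMIs *Fabp4* was in 41.7% of these cells at puberty and 21.1% in the adult, and *Cd36* in 21.8% and 6.40%. *Pparg* did not follow them, with a ratio of 1.15 (1.09 to 1.22) and shares of 27.7% and 28.5%. *Car3* was in 5.85% and 1.33% of these cells at 3000 UMIs, while the ratio of its summed level was 0.790.

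Because *Pi16*+*Dpp4*+ cells, with low levels, made up a smaller share of adult *Pdgfra*+ cells, the stage comparison was repeated with the *Pdgfra*+ cells split into 7 classes without overlap. The classes were cells with the markers of exactly 1 of the 5 subsets, cells with several and cells with none. With both libraries set to the pubertal class shares, the log2 ratio of *Pparg* was 0.82, against 1.20 as observed, and that of *Plin2* 0.83, against 1.16. Both thus stayed higher in the adult and neither passed 2-fold. The class shares alone, at pubertal levels, gave 0.45 for *Pparg* and 0.23 for *Plin2*. *Fabp4* went from -0.11 to -0.56, *Cd36* from -0.20 to -0.64 and *Car3* from -0.41 to -0.86. The CPM ratios of these 3 genes were thus lower at pubertal class shares than in the whole. For *Fabp4* the share of cells in the whole went the other way, from 8.77% to 10.9%. *Lpl* went from 0.41 to 0.12 and *Aoc3* from 0.37 to 0.05. With every class weighted equally the sign of *Cebpa* and of *Aoc3* turned, to -0.14 and -0.41.

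**Figure D2:**
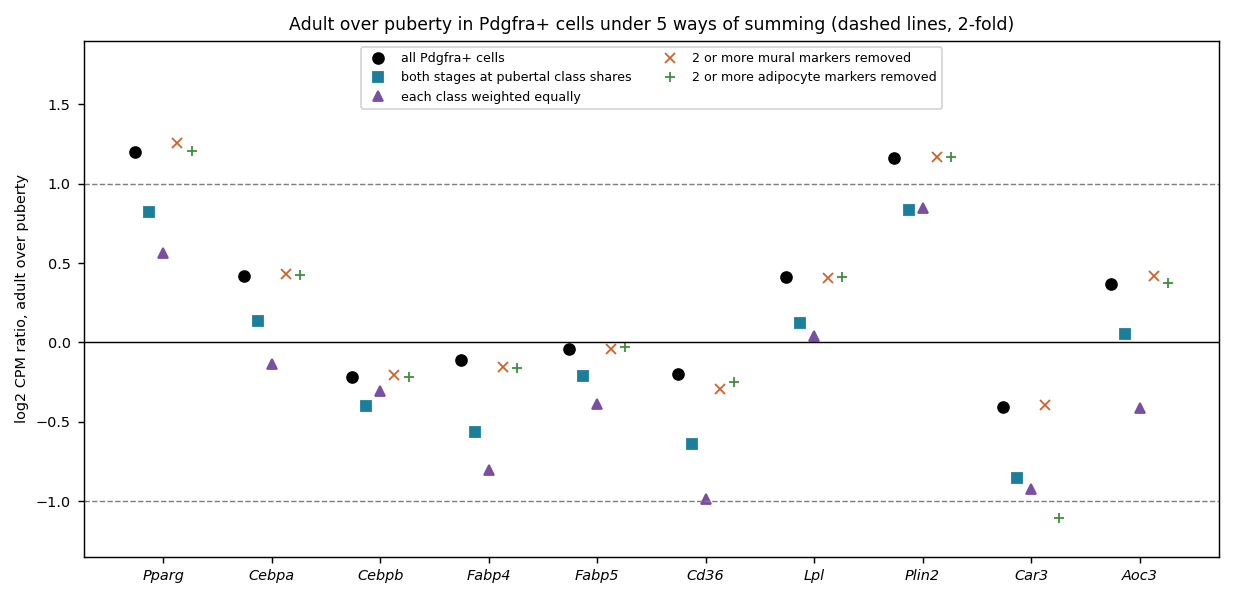
Log2 ratio of adult over pubertal CPM in *Pdgfra*+ cells (y axis) for each gene (x axis) under 5 ways of summing, with 1 library per stage and dashed lines at 2-fold. *Pparg* and *Plin2* are above 0 in all 5, *Fabp4*, *Cd36* and *Car3* below 0 in all 5, and *Car3* is at -1.10 without cells carrying at least 2 adipocyte markers.

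By subset the difference in *Plin2* was wider than that in *Pparg* in some cells. *Plin2* in the adult was 2.29 times the pubertal level in *Gdf10* or *Fmo2* cells (2.22 to 2.37), 2.66 times in *Frmpd4* cells (2.43 to 2.91) and 1.54 times in *Pi16*+*Dpp4*+ cells. *Pparg* was 2.16 times in *Gdf10* or *Fmo2* cells (2.08 to 2.24), 1.98 times in *Frmpd4* cells (1.78 to 2.20) and 2.26 times in *Pi16*+*Dpp4*+ cells. In *Thbs4* or *Bmp5* cells the ratios were 2.06 for *Plin2* and 1.64 for *Pparg*, and in *Crabp1* cells 2.20 and 1.61. Both genes were higher in the adult in each of the 5 subsets and in cells with no subset marker. *Cebpb* stood lower in all 6 of those groups in the adult, with ratios from 0.656 to 0.945. With 1 library per stage none of these differences between subsets was tested.

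Counted by subset, the genes past 2-fold between the stages were few. In *Pi16*+*Dpp4*+ cells 1 was higher in the adult (*Pparg*, background 2.98%) and 0 lower (1.32%). In *Gdf10* or *Fmo2* cells 2 were higher (*Pparg* and *Plin2*, 3.66%) and 1 lower (*Car3*, 2.29%). *Plin2* was the 1 gene past 2-fold higher in *Thbs4* or *Bmp5* cells (1.38%), in *Crabp1* cells (2.1%) and in *Frmpd4* cells (3.28%). *Car3* was the 1 gene past 2-fold lower in *Crabp1* cells (2.67%) and *Cd36* in *Frmpd4* cells (2.79%), and 0 genes were so in *Thbs4* or *Bmp5* cells (2.26%), where *Car3* stayed under 10 CPM at both stages. The *Car3* call in *Crabp1* cells rests on few cells, with 50 UMIs in 1.38% of 289 pubertal cells and 44 UMIs in 1.20% of adult ones. *Plin2* was thus past 2-fold higher in 4 of the 5 subsets and *Pparg* in 2 of them. Most of these calls were lost in cells with the markers of 1 subset only. There *Plin2* was past 2-fold in *Frmpd4* cells alone (2.32), with 1.85 in *Gdf10* or *Fmo2*, 1.71 in *Thbs4* or *Bmp5* and 1.79 in *Crabp1* cells. *Pparg* was past it in *Thbs4* or *Bmp5* cells alone (3.27, from 30 and 254 UMIs), with 1.92 in *Pi16*+*Dpp4*+ and 1.49 in *Gdf10* or *Fmo2* cells.

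The mural cells carried most of these genes at higher levels than the *Pdgfra*+ cells. *Fabp4* stood at 2916 CPM at puberty and 2773 CPM in the adult, 24.5 and 25.1 times the *Pdgfra*+ cells. *Pparg* stood at 273 and 384 CPM, 8.48 and 5.19 times, and *Aoc3* at 376 and 315 CPM, 10.9 and 7.03 times. *Cebpb* stood at 1346 and 806 CPM, 3.94 and 2.75 times. *Lpl* was on the other side, at 337 and 235 CPM, 0.469 and 0.246 times the *Pdgfra*+ cells. In all, 7 and 6 of the 10 genes were at least 2-fold higher, against backgrounds of 18.5% of 9127 and 17.9% of 9715 genes, and 1 and 2 at least 2-fold lower, against 17.7% and 15.1%. The pubertal 7 included *Car3*, and without the cells with at least 2 adipocyte markers the count was 6. Between the stages *Cd36* was the 1 gene past 2-fold higher in adult mural cells (background 6.93% of 9171 genes), at 141 CPM at puberty and 379 CPM in the adult, a ratio of 2.68 (2.44 to 2.95). The 2 genes past 2-fold lower (background 2.21%) were *Fabp5*, at 48.2 and 20.8 CPM, and *Car3*. *Car3* stood at 61.4 CPM in pubertal mural cells and 1.36 CPM in adult ones. In the pubertal group 305 of the 313 *Car3* UMIs were in 1 of the 15 cells with at least 2 adipocyte markers, and *Car3* stood at 1.60 CPM without those cells.

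Mural markers were also counted in some *Pdgfra*+ cells, together with *Fabp4*, *Pparg* and *Aoc3*. At least 2 of the 7 markers (*Rgs5*, *Myh11*, *Acta2*, *Tagln*, *Notch3*, *Mcam* and *Cspg4*) were in 10.6% of pubertal and 6.58% of adult *Pdgfra*+ cells with at least 2 *Fabp4* UMIs, and in 1.32% and 1.11% of those with none. The summed level of the 7 markers was 688 and 258 CPM in the first and 19.6 and 18.1 CPM in the second. Doublet scores were higher with *Fabp4* as well. Among the highest-scoring cells were 16.4% and 16.3% of those with at least 2 *Fabp4* UMIs, against 8.39% and 8.48% with none. Cells with at least 2 *Cebpb* UMIs differed in this way too, at 10.9% and 12.1% against 5.28% and 5.75%. The higher scores were thus not particular to *Fabp4*, and these cells were not matched for depth. Without the cells with at least 2 mural markers the log2 ratio of adult over puberty was 1.25 for *Pparg*, -0.15 for *Fabp4* and 0.42 for *Aoc3*, and the sign was as before for all 10 genes.

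Genes were next paired within single cells. A total of 18542 pubertal and 20573 adult *Pdgfra*+ cells were reduced to 3000 UMIs each. The number of cells with both genes of a pair was divided by the number expected if the genes were independent. Of 45 pairs, 44 at puberty and 43 in the adult had at least 5 cells expected. The ratio was above 1 in 43 and 38 of these and at least 2 in 18 and 10. Its median was 1.59 at puberty and 1.25 in the adult.

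The largest ratios came mainly from pairs among *Fabp4*, *Cd36*, *Car3*, *Pparg* and *Aoc3*, with some pairs of other genes between them. *Cebpa* and *Car3* had a ratio of 3.99 at puberty, with 5.26 cells expected. *Fabp5* had ratios of 3.46 at puberty and 2.86 in the adult with *Cd36*, and 2.76 and 2.59 with *Fabp4*. *Pparg* and *Aoc3* had lower ratios, 2.73 and 1.52. *Fabp4* and *Cd36* were together in 491 pubertal cells, against 57.3 expected, and in 367 adult cells, against 62.7, ratios of 8.57 and 5.86. Of pubertal cells with *Cd36*, 75.2% had *Fabp4*, and of those without it 6.35%. *Fabp4* and *Car3* were together in 163 and 84 cells, 9.68 and 5.42 times the number expected. *Pparg* and *Fabp4* were together in 511 and 792 cells, 4.73 and 2.37 times. *Pparg* and *Cd36* were together in 218 and 245 cells, 5.03 and 2.87 times, and *Fabp4* and *Aoc3* in 500 and 540 cells, 3.80 and 2.59 times. *Cd36* and *Car3* at puberty had 101 cells with both against 6.76 expected, 14.9 times, the largest of the pairs at puberty.

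The pairs with *Cebpb* were close to independent at both stages. *Cebpb* and *Pparg* were together in 1.04 and 1.02 times the number of cells expected, and *Cebpb* and *Fabp4* 1.16 and 1.11 times. *Cebpa* and *Pparg*, which encode the pair of factors of the mature fat cell, were together in 49 pubertal and 108 adult cells, 1.45 and 0.921 times the number expected. *Pparg* and *Plin2*, the 2 genes more than 2-fold higher in the adult, were together in 249 and 888 cells, 1.86 and 1.40 times. *Plin2* and *Aoc3* in the adult were at 0.944 times.

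Part of the pairing lay between the classes of cells. With the expected number summed within the 7 classes, the ratio for *Fabp4* and *Cd36* was 2.76 at puberty and 3.40 in the adult, that for *Pparg* and *Fabp4* 2.09 and 1.81, and that for *Pparg* and *Cd36* 1.94 and 2.10. The median over pairs was 1.22 and 1.14. Among cells with no subset marker, *Fabp4* and *Cd36* were together in 2.03 and 3.33 times the number expected, and *Pparg* and *Fabp4* 1.40 and 1.60 times. In mural cells, where *Fabp4* was in 87.5% and 80.2% of cells at 3000 UMIs, *Fabp4* and *Pparg* were together in 1.12 and 1.21 times the number expected. These ratios are descriptions of cells that share a library, and a small ratio in sparse counts was not read.

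**Figure D3:**
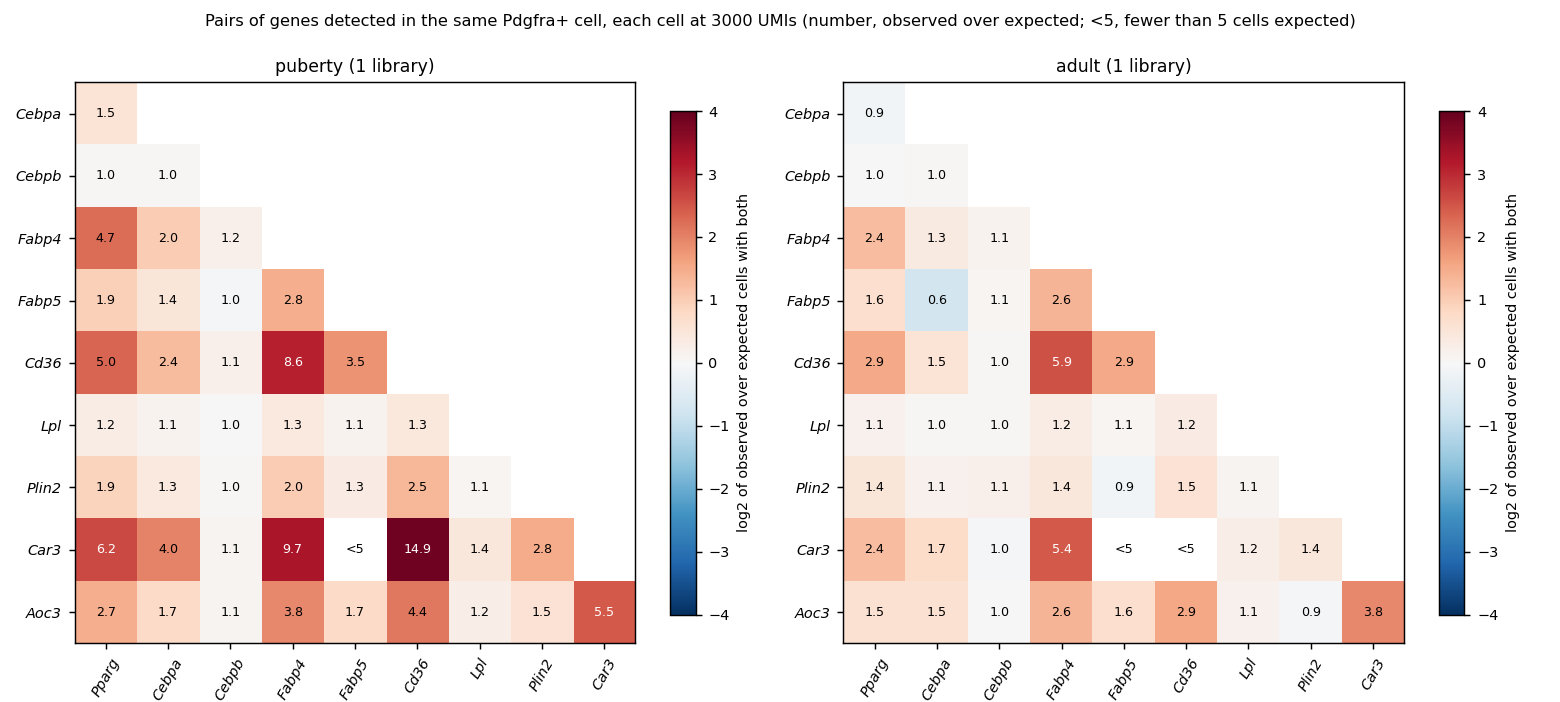
Observed over expected number of *Pdgfra*+ cells with both genes of a pair at 3000 UMIs a cell, at puberty (left) and in the adult (right), with the color on a log2 scale and pairs with fewer than 5 cells expected left blank. *Fabp4* with *Cd36* reaches 8.57 at puberty and 5.86 in the adult, while the pairs of *Cebpb* lie near 1.

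The 5 genes *Pparg*, *Fabp4*, *Cd36*, *Car3* and *Aoc3*, grouped after their pairing was seen, were then counted per cell. *Fabp5* was left out of this group. At least 3 of the 5 were found in 2.59% of pubertal and 2.11% of adult *Pdgfra*+ cells at 3000 UMIs. The share was 0.397% and 0.420% in *Pi16*+*Dpp4*+ cells, 3.75% and 3.08% in *Gdf10* or *Fmo2* cells, and 17.4% and 5.54% in cells with no subset marker. In mural cells it was 38.4% and 48.1%. A cell with several of these genes was thus rare among fibroblasts and common in the vessel wall.

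**Figure D4:**
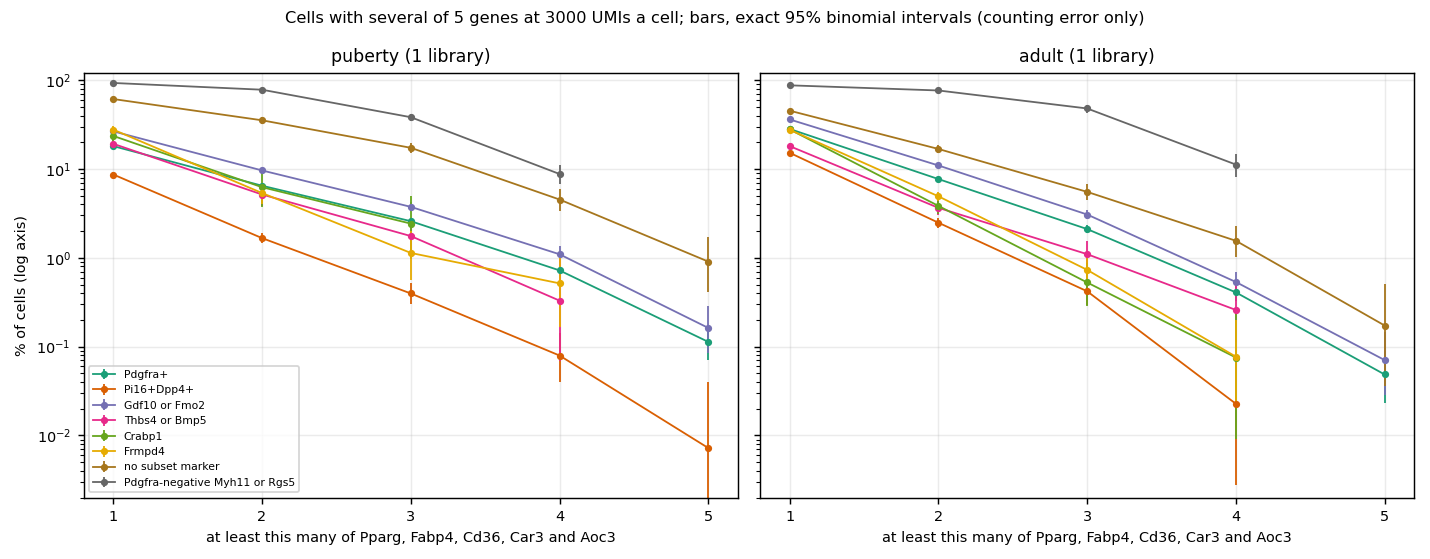
Share of cells (y axis, log scale) with at least 1 to 5 of *Pparg*, *Fabp4*, *Cd36*, *Car3* and *Aoc3* (x axis) in each group, at 3000 UMIs a cell, with exact 95% binomial intervals, and shares of 0 not drawn. The mural cells lie above the other groups from 1 to 4 genes and the *Pi16*+*Dpp4*+ cells lie lowest at 1 and 2 genes.

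The genes most enriched in *Pdgfra*+ cells with at least 2 UMIs of *Pparg*, *Fabp4* or *Car3*, over cells with none, were ranked by the lower of the ratios in the 2 libraries, with 5 CPM added to both sides. For *Pparg* these were *Adam12*, *Myh11*, *Sorbs2*, *Fgf10* and the unnamed locus *Gm16263*. *Adam12*, a metalloprotease of fat precursors and other mesenchymal cells, stood at 644 CPM in pubertal cells with *Pparg* against 53.4 CPM in those without, a ratio of 11.1, and at 920.4 against 187 CPM in the adult, a ratio of 4.82. *Fgf10*, a growth factor made by mammary stroma, stood at 197 against 32.9 CPM and 225 against 63.9 CPM, ratios of 5.32 and 3.34. For *Fabp4* the first genes were *Myh11*, *Acta2* and *Tagln*, which encode contractile proteins of smooth muscle, followed by *Adam12* and *Ctnna3*. *Myh11* stood at 256 CPM with *Fabp4* against 3.95 CPM without at puberty, and 95.7 against 2.55 CPM in the adult, ratios of 29.2 and 13.3. For *Car3* they were *Cfd* and *Adipoq*, which encode secreted proteins of mature fat cells, then *Tenm4*, *Cnmd* and *Prkar2b*. *Adipoq* stood at 35.0 CPM with *Car3* against 0.195 CPM without at puberty, and at 35.5 against 0.107 CPM in the adult. The part that vessel wall RNA and fat cell RNA had in these lists was not tested.

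The other genes of the pathway were read in 4 lists in *Pdgfra*+ cells, by the same 2-fold rule, and here too there was no test. Of 16 other transcription factors and cofactors of adipogenesis, 13 had at least 10 CPM in 1 library, and 2 of these were at least 2-fold higher in the adult and 0 lower, against 4.4% and 1.86% of all genes. They were *Egr2*, an early inducer of the program, at 48.6 CPM at puberty and 124 CPM in the adult, a ratio of 2.55 (2.50 to 2.61), and *Nr1h3*, which encodes the oxysterol receptor LXRα, at 5.94 and 13.2 CPM, a ratio of 2.22 (2.09 to 2.37). *Cebpd*, the partner of *Cebpb* in the early phase, stood at 898 and 874 CPM. The median log2 ratio of the 13 was 0.32, against 0.13 over all genes with at least 10 CPM in 1 library.

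Of 16 genes of mature fat cells, 2 had at least 10 CPM, the lipid synthesis genes *Scd1*, at 72.1 and 84.1 CPM, and *Fasn*, at 18.6 and 16.4 CPM. The other 14 were under 10 CPM in both libraries. *Adipoq*, which encodes adiponectin, was at 0.689 and 0.456 CPM and in 0.275% and 0.167% of *Pdgfra*+ cells. *Plin1*, the droplet coat of mature fat cells, was at 0.275 and 0.194 CPM. *Scd1* was in 53.8% and 53.7% of *Pdgfra*+ cells and *Fasn* in 19.6% and 16.3%. The low counts were not limited to hormones and droplet proteins of fat cells. The triglyceride synthesis genes *Dgat2*, at 2.65 and 1.97 CPM, and *Agpat2*, at 5.59 and 7.48 CPM, were low too. So were the lipase genes *Lipe*, at 1.79 and 2.51 CPM, and *Pnpla2*, at 8.55 and 8.03 CPM.

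Of 16 other genes of lipid uptake, storage and efflux, 11 had at least 10 CPM, and 2 were at least 2-fold higher in the adult and 0 lower, against the same 4.4% and 1.86%. *Angptl4*, a secreted inhibitor of lipoprotein lipase, stood at 8.25 and 31.4 CPM, a ratio of 3.80 (3.62 to 4.00), and *G0s2*, an inhibitor of triglyceride lipase, at 10.7 and 23.6 CPM, a ratio of 2.21 (2.11 to 2.31). The median log2 ratio of the 11 was 0.30. Of 13 genes that mark or restrain early fat precursors, 10 had at least 10 CPM, 1 was at least 2-fold higher and 0 lower, against 4.4% and 1.86%. It was *Icam1*, an adhesion molecule of committed preadipocytes, at 76.1 and 154 CPM, a ratio of 2.02 (1.98 to 2.05). The median log2 ratio of the 10 was -0.31.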

How the data were processed

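Single-cell RNA-seq of sorted mammary stroma was read from 1 pubertal and 1 adult library. The authors deposited matrices of raw UMI counts (genes by barcodes). The file headers name Cell Ranger 8.0.1, and the reads were aligned to mm10 per the submitters' processing notes, with no normalization. The annotation is not given in the sources used here. The labels name a GEM-X 3′ kit and 4 weeks for puberty, while the study's methods name another kit, software version and pubertal age, and the labels were followed. Gene positions are from GENCODE for GRCm38, the same assembly as mm10.

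Cells with at least 500 genes and at most 10% mitochondrial UMIs were used, and no doublets were removed. An alternative removed them by Scrublet score in Scanpy 1.11.5 (8.67% of pubertal and 9.27% of adult barcodes, where the caller's own threshold marked 2.69% and 3.44% of the cells scored). Counts were summed per group and scaled to CPM. Shares of cells, co-detection and genes per cell used cells of at least 3000 UMIs, each thinned to 3000 at random without replacement, which left out 336 pubertal and 426 adult *Pdgfra*+ cells. Shares carry exact Clopper-Pearson 95% intervals, and a count of 0 was given the limit of 3 counts. Each stage had 1 library, so samples could not be tested against each other and no p-value was computed. A gene was called past 2-fold, among genes with at least 10 CPM in 1 of the groups compared.

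Schwann and skeletal muscle cells for background were *Pdgfra*-negative cells with at least 3 of 6 markers of the type. Up to 3 of 5 fibroblast markers were allowed in them, a limit widened after the data were seen because *Dcn* and *Col1a2* were counted in most droplets. The text names the 10 genes, the list genes past 2-fold with at least 10 CPM, and for *Pparg*, *Fabp4* and *Car3* the 5 other genes of highest ratio with at least 20 CPM in the cells with at least 2 UMIs. Any other gene was named after its values were seen. The 10 genes and the lists were chosen with earlier results of these data known. The ratio, call and co-detection steps were tested on simulated data. Python 3.11.15, NumPy 2.4.6, SciPy 1.17.1, R 4.3.3 and edgeR 4.0.16 (TMM factors only) were used.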

Additional observations from a re-analysis of the deposited data

Results flagged for a closer look

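*Cd36*, the fatty acid transporter, is listed here because its difference between the stages went in opposite directions in 2 kinds of cells. In *Pdgfra*+ cells the adult level was 0.870 times the pubertal one (0.835 to 0.906), and in *Pdgfra*-negative cells with *Myh11* or *Rgs5* it was 2.68 times (2.44 to 2.95). At 3000 UMIs a cell *Cd36* was in 3.52% of pubertal and 2.79% of adult *Pdgfra*+ cells, and in 21.9% and 39.8% of the mural cells. Each group was 1 library per stage, so the difference between the 2 ratios was not tested.

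Within the mural cells the pericyte marker *Rgs5* was in 39.0% of pubertal and 59.7% of adult cells, and *Myh11* in 96.6% and 85.8%. Markers of other cells differed between the mural groups too. All 6 epithelial markers were higher in the adult, with a summed level of 34.9 CPM at puberty and 616 CPM in the adult (*Epcam* at 9.80 and 227 CPM). Of 6 endothelial markers 4 were higher, with a sum of 69.8 and 113 CPM (*Emcn* at 7.84 and 41.2 CPM). *Cd36* was in 5 of 5 pubertal and 17 of 18 adult endothelial-like cells at 3000 UMIs. The part of these differences in the *Cd36* ratio was not tested.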

How the results depend on the processing

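With 1 library per stage no replicate could be left out, so the intervals say nothing of the spread between animals. No paired analysis was possible because each stage had 1 library. The median log2 ratio over the 10 genes, 0.17 as reported, was 0.024 with TMM scaling, 0.042 when CPM was averaged over cells, -0.079 at pubertal class shares and -0.35 with equal weight per class. The number of genes at least 2-fold higher was 2 as reported and 0 at pubertal class shares and with equal weight. The number at least 2-fold lower was 0 as reported and 1 (*Car3*) without cells with at least 2 adipocyte markers, where *Car3* stood at 9.53 and 4.43 CPM, under the 10 CPM needed for a call. Filters on mitochondrial UMIs, genes per cell, doublets, *Pdgfra* UMIs and mural markers left both numbers as reported. With at least 10 UMIs in each library in place of 10 CPM, 8.26% of 19307 genes were at least 2-fold higher and 4.85% lower.

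The median co-detection ratio, 1.59 at puberty and 1.25 in the adult, was 1.22 and 1.14 with the expected number summed within classes. The adult value was 1.13 with cells thinned to 5000 UMIs. Of 45 subset values past 2-fold, 42 stayed past it with subset markers at 2 UMIs, 45 without doublets and 44 without mural marker cells. With cells of 1 subset only, 26 of 31 stayed past it, and *Thbs4* or *Bmp5* cells of the adult reversed for *Pparg* (0.046 on the log2 scale) and *Fabp4* (0.19). The removals of mural and adipocyte marker cells were chosen after seeing the data.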

Other observations

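The *Pdgfra*+ cells with no subset marker differed from all *Pdgfra*+ cells in other genes of the 4 lists as well, and the genes named here were chosen after their values were seen. *Wnt10b*, a Wnt ligand that restrains adipogenesis, stood at 1.12 CPM in them at puberty and 0.350 CPM in the adult, against 17.0 and 9.25 CPM in all *Pdgfra*+ cells. *Bmp7* stood at 3.72 and 5.42 CPM, against 30.1 and 18.2 CPM. *Mgll*, the monoglyceride lipase, stood at 24.9 and 14.5 CPM, against 111 and 58.7 CPM, and *Cd34*, a marker of early precursors, at 308 and 311 CPM, against 691 and 631 CPM. *Icam1* was on the other side, at 255 and 187 CPM, against 76.1 and 154 CPM. *Apoe*, which carries lipid out of cells, stood at 1018 and 468 CPM, against 395 and 394 CPM.

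Among all cells kept, the barcodes with most *Car3* at each stage had no *Pdgfra* UMI. At puberty the first 4 had 718, 621, 499 and 305 *Car3* UMIs and 0 *Pdgfra* UMIs, with 6, 75, 19 and 30 UMIs of *Adipoq*. In the adult the first had 897 *Car3*, 30 *Adipoq* and 0 *Pdgfra* UMIs. The next barcodes carried *Pdgfra*, with 242 and 216 *Car3* and 2 *Pdgfra* UMIs each at puberty, and with 538, 334 and 290 *Car3* and 3, 11 and 4 *Pdgfra* UMIs in the adult. The 5 cells without *Pdgfra* had between 18052 and 31009 UMIs in total, and each had between 24 and 96 UMIs of *Dcn*.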
